A study of Mus musculus with 54 samples.

Results

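Cd63 and Cd63-ps, a sequence annotated as a pseudogene of Cd63, were followed through RNA and transcription factor binding data of mouse liver. They are the rows with these symbols, 2 of the 13815 genes in the expression table, and they were selected on their RNA values, which were high in livers without folliculin and low again where Tfe3 was deleted too. The 15 RNA-seq libraries, 3 in each of 5 groups, came from mice with floxed Flcn, the gene of folliculin, given an adeno-associated virus with the hepatocyte promoter TBG. Livers labelled DKO had received Cre and lacked Tfe3 in the whole body (Flcn lox/lox; Tfe3 -/Y), and were studied on AMLN diet, a diet that induces steatohepatitis. LiFKO livers had received Cre, and Control livers GFP, each on AMLN diet and on normal chow. Diets lasted 17 to 18.5 weeks and the mice were fasted for 4 to 6 hours. DKO livers were studied on AMLN diet alone, and DKO mice came from a line of their own, so that line and genotype cannot be told apart. Since TBG acts in hepatocytes, the other cells of a LiFKO liver keep Flcn. Age, and whether each library came from a separate mouse, are not given in the labels, so p-values measure the spread between these libraries.

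Binding was measured by chromatin immunoprecipitation sequencing (ChIP-seq). TFE3 peak lists were made from pooled LiFKO and Control livers on chow, and from pooled LiFKO, Control, LiFKO+1c and Control+1c livers after 9 days of FPC diet. The "1c" livers also carried a virus for HA-tagged nSREBP-1c, the active nuclear form of an activator of fatty acid synthesis genes, driven by the ApoE/AAT promoter, and HA peak lists exist for LiFKO+1c and Control+1c. The GFP or Cre virus was given at 1.5e11 genome copies for RNA-seq, chow ChIP-seq and the 1c livers. FPC livers without 1c received 2.5e11, and the 1c virus was given at 1.0e11. Virus dose thus differs between the peak lists.

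CD63 is a tetraspanin, a family of membrane proteins that cross the bilayer several times and gather other proteins into microdomains. It sits in the membrane of late endosomes, lysosomes and the vesicles inside multivesicular bodies, and is widely used as a marker of exosomes, the vesicles that leave the cell when those bodies fuse with its surface. TFE3 is a transcription factor of lysosomal genes; folliculin, acting on the GTPases RagC and RagD, lets mTORC1 phosphorylate it and hold it in the cytoplasm. A processed pseudogene is a copy of an mRNA that was inserted back into the genome, so its sequence can resemble the spliced gene closely and short reads from one may be placed on the other.

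Cd63 (ENSMUSG00000025351, protein coding) lies on chromosome 10, from 128345975 to 128349872 in mm9, the build of the deposited files.

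The promoter of Cd63 is shown because the gene ranked near the top of all differences, and that of Bloc1s1, a subunit of the BLOC-1 and BORC complexes of lysosome-related organelles and lysosome positioning, because the TFE3 peaks nearest to Cd63 outside its own span lie within the span of Bloc1s1 in mm9 (128354938 to 128361091). Both run from 250 bases before to 50 bases after the RefSeq gene start in GRCm38.p6: chr10:128909095-128909394, plus strand, for Cd63, and chr10:128923475-128923774, minus strand, for Bloc1s1. Capitals mark CACGTG, the E-box core that TFE3 and its relatives can bind.
Cd63: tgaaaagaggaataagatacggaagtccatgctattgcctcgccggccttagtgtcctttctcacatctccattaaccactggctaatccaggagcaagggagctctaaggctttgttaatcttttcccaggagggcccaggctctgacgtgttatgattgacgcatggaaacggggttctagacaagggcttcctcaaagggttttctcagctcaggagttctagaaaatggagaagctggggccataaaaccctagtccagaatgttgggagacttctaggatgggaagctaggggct
Bloc1s1: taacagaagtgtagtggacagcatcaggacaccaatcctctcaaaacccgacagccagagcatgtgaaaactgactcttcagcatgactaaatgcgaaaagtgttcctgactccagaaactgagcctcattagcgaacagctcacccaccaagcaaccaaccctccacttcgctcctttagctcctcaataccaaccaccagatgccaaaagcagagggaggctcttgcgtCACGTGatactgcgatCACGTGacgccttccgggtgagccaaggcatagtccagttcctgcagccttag
In all, 2 motifs were searched on both strands, CACGTG and TCATGTG, the M-box core; neither contains the other. The Cd63 window held neither, and the Bloc1s1 window held 2 copies of CACGTG, which begin 19 and 3 bases before the gene start. Windows of Dnajc14, Ormdl2, Sarnp and Rdh5 near Cd63, and of Agap2, Gpx3, Jazf1 and Rragd, named below, were searched too. They held 0 copies of either motif. The nearest TFE3 peak outside Cd63, at 128356258 to 128356422, lies within the span of Rdh5 (128350649 to 128359944) as well as that of Bloc1s1. Of 32851 promoter windows of this length, 7.15% held CACGTG and 3.77% held TCATGTG. These are matches of letters only, and no match says nothing about binding elsewhere in the gene. The RefSeq table used here gives a position in another build than the peaks, so the windows were not placed against them.

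Cd63-ps (ENSMUSG00000085939, pseudogene) lies on chromosome 18, from 50294380 to 50295254 in mm9, inside the span of Hsd17b4, the peroxisomal multifunctional enzyme of fatty acid beta-oxidation (50287855 to 50355923). The files state neither its strand nor which exons or introns the position overlaps. How reads that match both places were counted is not given in the sources used here, so the value of either gene may hold reads of the other, and each is reported as uncertain on its own.

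Of the libraries as a whole, Flcn was lower in every LiFKO library than in every Control library of the same diet. It averaged 9.49 ± 0.40 (log2 value, SD, n = 3) in libraries labelled DKO, 10.42 ± 0.16 in AMLN LiFKO and 10.98 ± 0.07 in AMLN Control, and 10.41 ± 0.23 in chow LiFKO and 11.44 ± 0.11 in chow Control. Tfe3 averaged 9.99 ± 0.18 in libraries labelled DKO, against 9.92, 10.02 and 10.07 in the 3 AMLN LiFKO libraries and 10.24 ± 0.05 in AMLN Control (n = 3 each where a mean is given). One value per gene says nothing of the deleted exons, and the DKO name stands for the label. All expression values are the authors' quantile-normalised log2 values, without counts, so that the depth of a library is unknown, and they are not per length, so that levels of different genes are not compared.

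Cd63 was among the highest-ranked differences of the table after loss of Flcn, and was low again in the libraries labelled DKO. On chow its log2 value was 12.89, 13.13 and 12.52 in the 3 LiFKO libraries, and 7.49, 7.64 and 7.64 in the 3 Control libraries. On AMLN diet it was 10.19, 8.63 and 8.59 in the libraries labelled DKO, 12.66, 12.84 and 12.98 in LiFKO, and 9.52, 9.55 and 9.30 in Control. All 6 LiFKO libraries lay above all 9 others, while the DKO and AMLN Control libraries overlapped, with DKO replicate 1 above every AMLN Control library and DKO replicates 2 and 3 below.

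**Figure D1:**
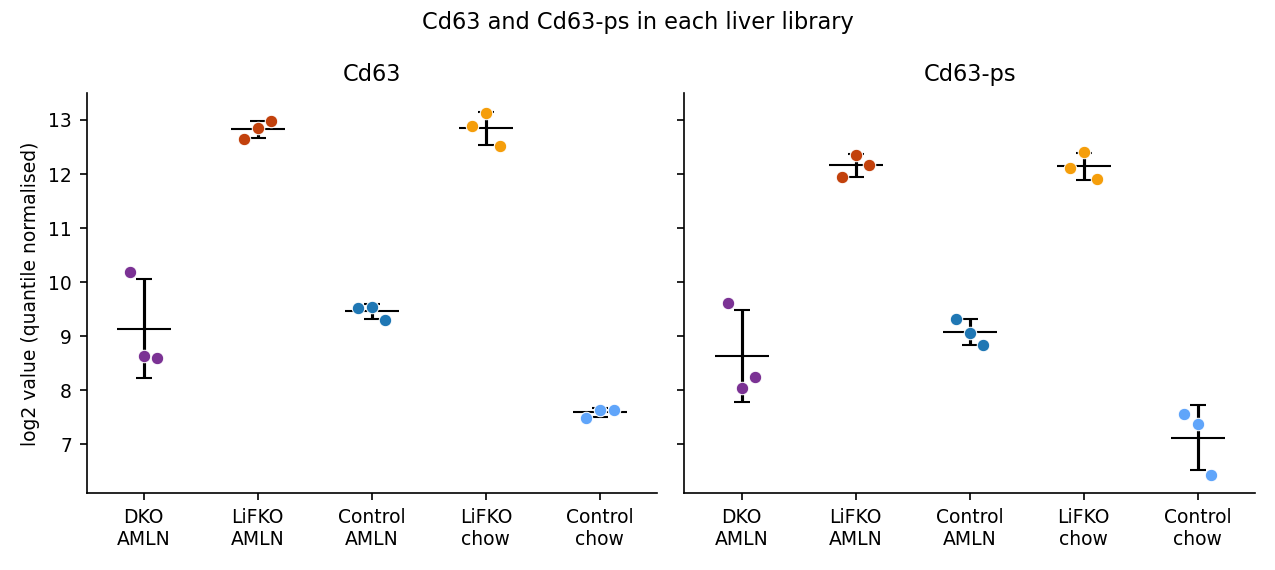
Log2 value of Cd63 (left) and Cd63-ps (right) in each of 15 liver libraries, by group; each point is a library, the wide bar is the mean of 3 and the whiskers are 1 SD. The LiFKO libraries of both diets lie at 12.52 or higher for Cd63 and at 11.91 or higher for Cd63-ps, above all DKO and Control libraries.

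Cd63-ps had the same order of groups as Cd63, apart from LiFKO livers, whose values overlapped between diets for both. On chow it was 12.12, 12.40 and 11.91 in LiFKO and 7.56, 7.37 and 6.43 in Control. On AMLN diet it was 9.61, 8.04 and 8.24 in the libraries labelled DKO, 11.95, 12.36 and 12.17 in LiFKO, and 9.32, 9.05 and 8.84 in Control. DKO replicate 1 was again the highest of its group and stood above every AMLN Control library, and the 3 chow Control libraries were spread more widely than for Cd63.

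The group means followed one order for both: LiFKO on either diet, then AMLN Control, the libraries labelled DKO, and chow Control. AMLN LiFKO averaged 12.83 ± 0.16 and chow LiFKO 12.85 ± 0.31 for Cd63, and for Cd63-ps AMLN LiFKO averaged 12.16 ± 0.21 and chow LiFKO 12.14 ± 0.25 (SD, n = 3 each). AMLN Control averaged 9.46 ± 0.13 for Cd63 and 9.07 ± 0.24 for Cd63-ps, and the libraries labelled DKO averaged 9.14 ± 0.91 and 8.63 ± 0.85. Chow Control averaged 7.59 ± 0.09 and 7.12 ± 0.61. The 2 LiFKO groups overlapped, as did DKO and AMLN Control, and every other step in the order was free of overlap.

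The size of the Flcn difference on chow was 5.26 for Cd63 (log2, LiFKO minus Control, SE 0.31), which is 38.2-fold, and 5.02 for Cd63-ps (SE 0.35), 32.5-fold. They held ranks 20 and 26 from the top of 13815 genes. On AMLN diet it was 3.37 for Cd63 (SE 0.31, 10.3-fold) and 3.09 for Cd63-ps (SE 0.35, 8.51-fold), at ranks 49 and 58. Since these values chose the genes, no p is given for them; over all genes, limma called 25.7% on chow and 19.7% on AMLN diet at a Benjamini-Hochberg adjusted p under 0.05.

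With Tfe3 deleted as well, both were lower than in AMLN LiFKO: the log2 difference was -3.69 for Cd63 (SE 0.31, rank 20 from the bottom) and -3.53 for Cd63-ps (SE 0.35, rank 24), in a comparison that called 11.0% of all genes. Against AMLN Control the difference was -0.32 for Cd63 (SE 0.31, 95% interval -0.98 to 0.34) and -0.44 for Cd63-ps (SE 0.35, -1.19 to 0.31). Each library labelled DKO moves these last values. Without DKO replicate 1 the difference from Control is -0.85 for Cd63 and -0.93 for Cd63-ps. Without DKO replicate 2 it is -0.07 and -0.15, and without DKO replicate 3 it is -0.04 and -0.25. That comparison called 0.651% of all genes. The comparisons on AMLN diet share libraries: LiFKO stands in the Flcn and the DKO difference with opposite signs.

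The diet alone was tested on these genes in the same fit, in livers that kept Flcn and in livers that lacked it. In Control livers Cd63 rose by 1.87 on AMLN diet relative to chow (SE 0.31, 3.64-fold, 95% interval 1.20 to 2.53, adjusted p = 0.00125 in limma), and Cd63-ps by 1.95 (SE 0.35, 3.86-fold, 1.20 to 2.70, adjusted p = 0.002). All 3 AMLN Control libraries lay above all 3 chow Control libraries for both genes. In this comparison 22.8% of all genes were called, 11.2% as higher. Leaving out any 1 library kept the Cd63 difference between 1.82 and 1.94 and that of Cd63-ps between 1.60 and 2.17, with a largest adjusted p of 0.00706 and 0.012. The comparison shares the chow Control libraries with the one that chose the genes. Low values in those libraries enlarge both differences, and the interval and adjusted p make no allowance for that choice.

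In LiFKO livers no diet difference was detected for either gene. Cd63 differed by -0.02 between AMLN and chow LiFKO (SE 0.31, 95% interval -0.68 to 0.64, adjusted p = 0.981 in limma) and Cd63-ps by 0.02 (SE 0.35, -0.73 to 0.76, adjusted p = 0.987), where 3.74% of all genes were called. The intervals leave room for a difference of up to 0.68 or 0.76 in size. The Flcn difference was thus smaller on AMLN diet than on chow, by -1.89 for Cd63 (SE 0.44) and -1.93 for Cd63-ps (SE 0.49), given as a description because the Flcn differences chose the genes; limma called 1.04% of all genes for this difference between diets.

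Markers of other liver cell types were read beside the diet difference in Control livers, because macrophages also carry much CD63 in their lysosomes. Of 18 macrophage markers measured, 8 were called higher and 0 lower (median 0.58, against -0.04 over all genes, of which 11.2% were called higher), among them Lgals3, the lectin galectin-3, by 2.31 (SE 0.38, adjusted p = 0.00118 in limma), Mpeg1, a pore-forming macrophage protein, by 1.81 (adjusted p = 0.00161), and Cd68, a lysosomal glycoprotein of macrophages, by 1.06 (adjusted p = 0.012). The count was 5 without chow Control replicate 1 or without AMLN Control replicate 1. The summed macrophage marker level was 15.73 to 16.16 in AMLN Control and 14.77 to 15.67 in chow Control (log2 of the summed linear values). Of 12 stellate cell markers 6 were called higher, Col1a1, a fibrillar collagen, by 2.31 (SE 0.44), and this count was 3 without any 1 of chow Control replicates 1 and 2 and AMLN Control replicates 1 and 2. The summed stellate level was 14.33 to 14.83 in AMLN Control and 13.79 to 14.39 in chow Control, with overlap. Of 11 hepatocyte markers, 2 were called higher and 5 lower (median -0.54), counts that were 1 to 3 and 3 to 5 with 1 library left out. In bulk liver, more cells of a type and more RNA per cell cannot be told apart, and the part of these cells in the Cd63 difference was not tested.

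Across the Flcn comparison on chow the same macrophage list had 2 of 18 higher and 0 lower, where 12.5% of all genes were called higher and 13.2% lower, with a median of -0.07 against -0.05 over all genes and a summed level of 15.12 to 15.48 in LiFKO and 14.77 to 15.67 in Control. The 2 were Cd68, at 2.22 (SE 0.27, adjusted p = 3.74e-05), and Mpeg1, at 1.09 (SE 0.31, adjusted p = 0.0185), and the count was 1 when any 1 of chow LiFKO replicates 1 and 2 and chow Control replicates 1 and 3 was left out. Clec4f, a lectin of Kupffer cells, differed by -0.26 (adjusted p = 0.382) and Csf1r, the receptor of macrophage growth factor, by -0.37 (adjusted p = 0.339). On AMLN diet 2 of the 18 were called higher and 1 lower in LiFKO, where 10.1% of all genes were called higher and 9.63% lower. With 1 library left out these counts were 0 to 4 and 0 to 2. The 1 lower was Lgals3, at -1.40 (adjusted p = 0.0174 in limma). In DKO against LiFKO, 2 were called lower and 0 higher, where 5.97% of all genes were lower and 5.05% higher. Cd68 was 0.98 higher in AMLN LiFKO than in Control (SE 0.27, adjusted p = 0.018). It was 1.48 lower in DKO than in LiFKO (-1.48, SE 0.27, adjusted p = 0.00256). The summed macrophage marker level there was 15.19 to 16.02 in the libraries labelled DKO, 15.56 to 16.33 in LiFKO and 15.73 to 16.16 in Control, so that the groups overlapped. Of the mast cell and platelet markers, cells whose granules also carry CD63, 2 of 12 were measured and 0 were called on chow.

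Endothelial and hepatocyte markers were read in the same way across the Flcn comparisons. Of 10 endothelial markers, 2 were called higher on chow and 1 on AMLN diet in LiFKO against Control, and 1 lower in DKO against LiFKO, with 0 in the opposite directions. Over all genes, 12.5% were called higher on chow, 10.1% higher on AMLN diet and 5.97% lower in DKO against LiFKO. Stab2, a scavenger receptor of sinusoidal endothelium, was 1.02 higher on chow (adjusted p = 8.37e-05 in limma), 1.45 higher in AMLN LiFKO (adjusted p = 6.64e-06) and differed by -0.65 in DKO against LiFKO (adjusted p = 0.00602). Lyve1, a hyaluronan receptor of the same cells, was 1.33 higher on chow (adjusted p = 0.00252). The summed endothelial level was 14.44 to 14.66 in the libraries labelled DKO, 14.72 to 14.84 in AMLN LiFKO and 14.32 to 14.47 in AMLN Control. LiFKO thus stood above the others without overlap. On chow it was 14.55 to 14.73 in LiFKO and 14.27 to 14.61 in Control, with overlap. Stab2, which averaged 13.21 in AMLN LiFKO and 11.76 in AMLN Control, was the largest term of that sum. The median of the list in LiFKO against Control on chow was -0.02, against -0.05 over all genes. Its lowest member on chow, Tek, differed by -0.27 (adjusted p = 0.301 in limma). The median of the list in AMLN LiFKO against Control was 0.12, against -0.02 over all genes. In DKO against Control, Stab2 was still 0.80 higher (adjusted p = 0.018 in limma), while no difference is described for Cd63 beyond its interval.

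Of 11 hepatocyte markers, 3 were higher and 2 lower on chow, where 12.5% of all genes were called higher and 13.2% lower, and the counts were 1 to 2 in each direction with any 1 library left out. Their summed level was lower in LiFKO without overlap. On chow it was 21.74 to 22.14 in LiFKO and 22.35 to 22.42 in Control. On AMLN diet it was 22.36 to 22.38 in the libraries labelled DKO, 21.90 to 22.00 in LiFKO and 22.34 to 22.41 in Control. Such a sum follows the genes of highest value, and is not a count of markers that fell. Alb, the gene of albumin, differed by -1.09 to -0.82 on chow with 1 library left out. Hpx, of the same list, went the other way, by 1.33 to 1.47. The median of the list on chow was -0.10, against -0.05 over all genes. On AMLN diet 1 was called higher and 0 lower in LiFKO (median 0.06), where 10.1% of all genes were higher and 9.63% lower. In DKO against LiFKO 0 were called in either direction (median 0.11), where 11.0% of all genes were called. The part of these cell types in the Cd63 difference was not tested.

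Within each library the gene and its pseudogene stayed close to a fixed ratio. The log2 value of Cd63 minus that of Cd63-ps was 0.59, 0.59 and 0.34 in the libraries labelled DKO, 0.71, 0.48 and 0.81 in AMLN LiFKO, 0.20, 0.50 and 0.46 in AMLN Control, 0.77, 0.73 and 0.61 in chow LiFKO, and -0.07, 0.27 and 1.21 in chow Control. Its mean was 0.55 with an SD of 0.30 over 15 libraries, and 0.57 with an SD of 0.18 over the 12 libraries outside chow Control, while Cd63 itself spanned 5.64. The scatter was widest in chow Control, where both genes were lowest. These values are not per length, so the offset itself does not compare their levels.

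**Figure D2:**
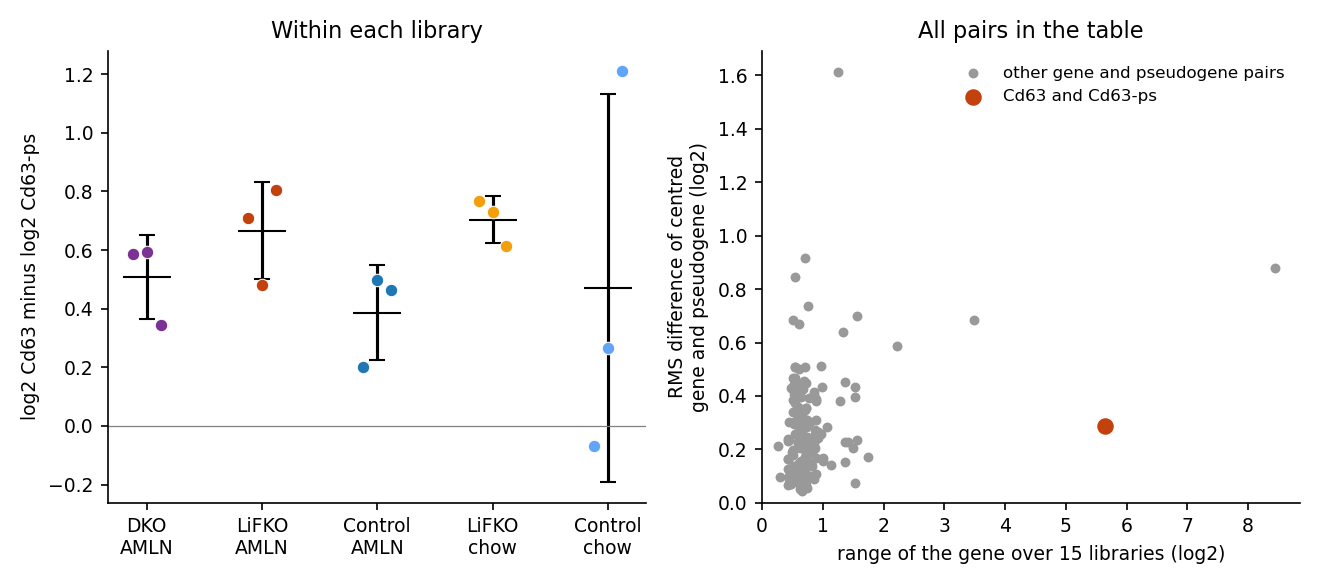
Left, log2 value of Cd63 minus that of Cd63-ps in each library, with the mean of 3 (wide bar) and 1 SD (whiskers); outside chow Control the points lie between 0.20 and 0.81. Right, for 159 pairs of a gene and its pseudogene, the root mean square difference of their centred values against the range of the gene over 15 libraries, with the Cd63 pair at 0.29 and 5.64.

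To set this beside other pairs, 159 of 204 pseudogene symbols ending in -ps had their gene in the table. The Cd63 pair had a root mean square (RMS) difference of 0.29 between the centred log2 values, at position 97 from the smallest, where the median pair had 0.24. Most of those genes hardly varied: the median gene spanned 0.69, and 4 spanned more than 2. Relative to the range of the gene, the difference of the Cd63 pair was 0.051, the second smallest, against a median of 0.322. Cd63 was selected on the group differences that make its range wide, so a small ratio follows in part from that choice. Fabp3, a fatty acid binding protein, spanned 8.44 and differed from Fabp3-ps1 by 0.88. The deposited values hold no reads, and whether reads were shared between the gene and the pseudogene was not tested.

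The nearest measured genes on each side of each locus differed far less between groups than Cd63. Among the 3 measured genes on each side of Cd63, the LiFKO minus Control difference ran from -0.43 (Ormdl2, a regulator of sphingolipid synthesis) to 0.34 (Bloc1s1) on chow and from -0.19 to 0.52 on AMLN diet. Rdh5, a retinol dehydrogenase that begins 0.777 kb beyond the upper end of Cd63, differed by 0.18 on chow (SE 0.21, adjusted p = 0.587 in limma) and Bloc1s1 by 0.34 (SE 0.22, adjusted p = 0.28). Ormdl2 was called on chow (adjusted p = 0.0048), and Itga7, an integrin chain, in DKO against LiFKO (0.53, SE 0.14, adjusted p = 0.0304).

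Hsd17b4, whose span holds Cd63-ps, was among the strongest signals of the table and nearly flat. It was 15.59, 15.50 and 15.40 in the libraries labelled DKO, 15.47, 15.23 and 15.24 in AMLN LiFKO, 15.67, 15.50 and 15.10 in AMLN Control, 15.18, 15.19 and 15.15 in chow LiFKO, and 14.97, 14.98 and 15.12 in chow Control. Its Flcn difference was 0.15 on chow (SE 0.12, adjusted p = 0.417 in limma) and -0.11 on AMLN diet (SE 0.12, adjusted p = 0.596), and it was 0.40 higher in AMLN than in chow Control (adjusted p = 0.0326). The other measured genes nearest to Cd63-ps lay 27.6 kb (Tnfaip8) to 2330 kb (Srfbp1) away, so most are not close. They differed by -0.83 (Prr16, 982 kb away, adjusted p = 0.0059 in limma) to 0.26 (Dmxl1, 170 kb away) on chow.

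The genes most like Cd63 over the 15 libraries were, by the RMS difference of centred log2 values, Cd63-ps at 0.29, Uap1l1 at 0.35, Rragd at 0.60, Gipc2 at 0.74, Gpx3 at 0.76 and Jazf1 at 0.81; the median over 13814 genes was 2.18. For Cd63-ps they were Cd63, Uap1l1 at 0.37, Rragd at 0.74, Gipc2 at 0.79, Agap2 at 0.82 and Jazf1 at 0.83. Uap1l1 is a relative of the enzyme that makes UDP-N-acetylglucosamine, Rragd encodes RagD itself, and Gpx3 a secreted glutathione peroxidase. Such likeness is set mostly by the Flcn differences that chose Cd63, and is a description.

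Among the libraries labelled DKO, replicate 1 was the highest in all of these genes. They were picked for likeness to the pair over the same libraries, so this shared order follows in part from the choice. Uap1l1 was 10.35, 8.89 and 8.41 in the libraries labelled DKO, and Rragd 9.16, 8.14 and 8.12, with replicate 1 first, and the same held for the other 4 of the 6 genes named here beside the pair and for the pair. Flcn was 9.12 in DKO replicate 1, the lowest of the 3, against 9.45 and 9.91 in the others, and Tfe3 was 10.20 there, the highest of the 3. Cd63 and its pseudogene were also like Uap1l1, and unlike Rragd, in the diet difference of Control livers: Uap1l1 averaged 9.99 ± 0.40 in AMLN Control and 7.99 ± 0.44 in chow Control, while Rragd averaged 8.12 ± 0.33 and 7.64 ± 0.12 (SD, n = 3 each).

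**Figure D3:**
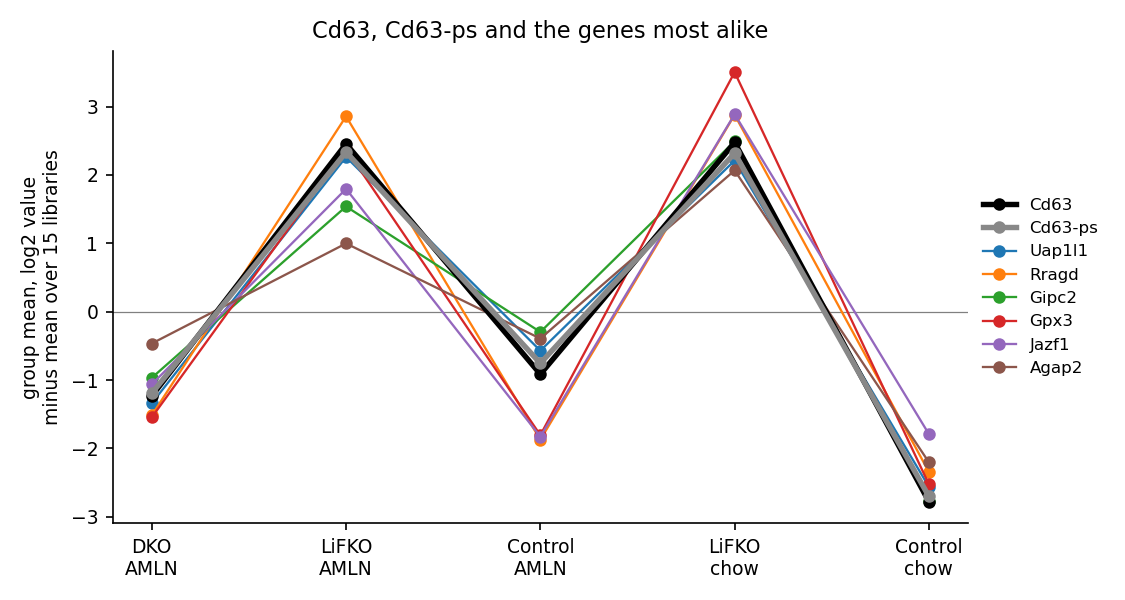
Group means of Cd63, Cd63-ps and the 6 genes most like either, as log2 value minus the mean over 15 libraries of that gene; each line is a gene. All lines are above 0 in both LiFKO groups and below 0 in the DKO and Control groups, and in AMLN Control the lines of Rragd, Gpx3 and Jazf1 lie lowest.

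The other tetraspanins were called in both directions. Of 21 measured of 30 listed, 4 were called higher and 4 lower in chow LiFKO against chow Control, from -1.01 to 1.30 (median -0.17, against -0.05 over all genes), where 12.5% of all genes were called higher and 13.2% lower; without chow LiFKO replicate 2 the lower count was 2. Cd81, a partner of integrins and immune receptors, rose by 1.30 (SE 0.12, adjusted p = 4.71e-06 in limma), Cd9, another exosome-associated tetraspanin, by 1.18 (SE 0.18, adjusted p = 0.000222) and Tspan3 by 0.83 (SE 0.20, adjusted p = 0.00691). Tspan33, one of the tetraspanins that escort the protease ADAM10, fell by 1.01 (SE 0.22, adjusted p = 0.00345) and Tspan12, a coreceptor of Norrin signalling, by 0.37 (SE 0.08, adjusted p = 0.00324). The largest of these differences, that of Cd81, was far from the 5.26 of Cd63.

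On AMLN diet 1 tetraspanin was higher in LiFKO than in Control, Cd81, by 0.91 (SE 0.12, adjusted p = 0.000156), and 3 were lower, Cd82, Tspan14 and Tspan7, where 10.1% of all genes were called higher and 9.63% lower. The lower count was 1 without any 1 of the AMLN Control libraries or without AMLN LiFKO replicate 3. Cd81 was also the 1 tetraspanin called lower in DKO against AMLN LiFKO, by 0.67 (-0.67, SE 0.12, adjusted p = 0.00277), beside 2 called higher, Tspan7 and Tspan14, where 5.97% of all genes were called lower and 5.05% higher; the higher count was 1 without any 1 of the 6 libraries. Cd81 averaged 14.05 in the libraries labelled DKO, 14.73 in AMLN LiFKO and 13.82 in AMLN Control, and 14.39 in chow LiFKO and 13.09 in chow Control (n = 3 each).

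In Control livers on AMLN diet relative to chow, 4 tetraspanins rose and 2 fell, where 11.2% of all genes were called higher and 11.6% lower. Cd9 rose by 1.38 (SE 0.18, adjusted p = 0.000274), Cd81 by 0.73 (SE 0.12, adjusted p = 0.00152), Tspan15 by 0.73 (adjusted p = 0.0208) and Cd151, a partner of laminin-binding integrins, by 0.48 (SE 0.10, adjusted p = 0.00408). Tspan33 fell by 1.84 (SE 0.22, adjusted p = 0.000168) and Tspan12 by 0.29 (adjusted p = 0.0172), and 1 of these was called without AMLN Control replicate 1 or 2.

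**Figure D4:**
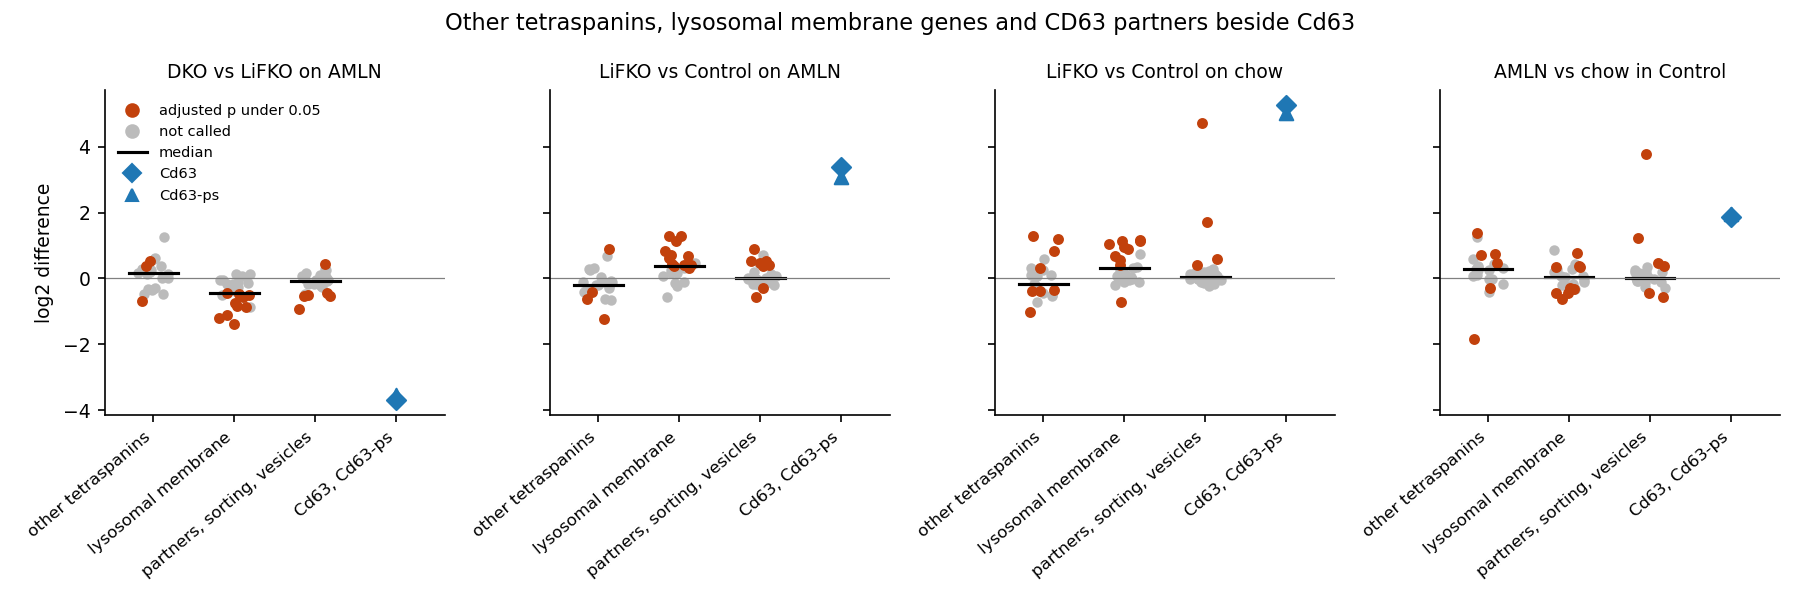
Log2 difference of each measured member of 3 gene lists in 4 comparisons, with Cd63 (diamond) and Cd63-ps (triangle) at the right; red points have an adjusted p under 0.05, grey points do not, and black lines are medians. In both Flcn comparisons Cd63 and Cd63-ps lie above every listed gene, and Smpd3, at 4.73 on chow, is the nearest.

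Several genes of other lysosomal membrane proteins were called in the direction of Cd63, by smaller amounts. Of 23 measured of 25 listed, 9 were called higher and 1 lower in chow LiFKO (median 0.33, against -0.05 over all genes, of which 12.5% were called higher and 13.2% lower). The 1 lower call, Slc29a3, was lost with the replicate block, without a trend, with only the groups compared, and without any 1 of chow LiFKO replicates 1 and 2 and chow Control replicates 1 to 3. In AMLN LiFKO 12 were higher and 0 lower (median 0.37, against -0.02), where 10.1% of all genes were higher and 9.63% lower. In the libraries labelled DKO against AMLN LiFKO, 10 were lower and 0 higher (median -0.44, against 0.02), where 5.97% of all genes were lower and 5.05% higher. Mcoln1, the calcium channel of lysosomes, rose by 1.16 on chow (SE 0.09, adjusted p = 6e-07 in limma), Clcn7, a chloride and proton exchanger, by 1.12 (SE 0.08, adjusted p = 2.86e-07), and Lamp1, a major glycoprotein of the lysosomal membrane, by 0.97 (SE 0.09, adjusted p = 4.72e-06). In Control livers on AMLN diet against chow, 4 of the list were higher and 5 lower, where 11.2% of all genes were higher and 11.6% lower. With 1 library left out these counts were 0 to 5 higher and 2 to 5 lower: the higher count was 0 without AMLN Control replicate 1, 1 without chow Control replicate 1 and 2 without chow Control replicate 2, and the lower count 3 without AMLN Control replicate 2 or 3 or chow Control replicate 1 and 2 without chow Control replicate 2.

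Of 26 measured partners, sorting and vesicle genes of 27 listed, 4 were higher and 0 lower in chow LiFKO (median 0.04, against -0.05 over all genes), where 12.5% of all genes were called higher, a share near that of the list. In AMLN LiFKO 6 were higher and 2 lower (median 0.005, against -0.02), where 10.1% of all genes were higher and 9.63% lower, the 6 becoming 3 without AMLN Control replicate 1 or AMLN LiFKO replicate 1. Smpd3, the neutral sphingomyelinase that helps form exosomes, rose by 4.73 on chow (SE 0.24, adjusted p = 2.18e-08 in limma) and by 3.78 in Control livers on AMLN diet relative to chow (SE 0.24, adjusted p = 5.83e-07). Ap3d1, the delta subunit of AP-3, the adaptor that carries tetraspanins such as CD63 to lysosomes, rose by 0.60 on chow (SE 0.08, adjusted p = 7.87e-05), and Rab7, the GTPase of late endosomes, by 0.42 (SE 0.06, adjusted p = 0.000215). Sytl4, a Rab27 effector in secretion, rose by 1.71 (SE 0.28, adjusted p = 0.000432).

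In the libraries labelled DKO against AMLN LiFKO, 5 of these genes were lower and 1, Ap3s1, was higher, where 5.97% of all genes were lower and 5.05% higher. The call of Ap3s1 was lost without any 1 of DKO replicates 1 and 2 and AMLN LiFKO replicates 2 and 3, without a trend and with only the groups compared. Rab7 fell by 0.52 (SE 0.06, adjusted p = 8.79e-05), Ap3d1 by 0.53 (SE 0.08, adjusted p = 0.000612), Tbc1d10a, an activating protein of Rab27 GTPases, by 0.51 (SE 0.12, adjusted p = 0.0109), and Smpd3 by 0.93 (SE 0.24, adjusted p = 0.0228), with Stam as the fifth. The lower count was 3 without AMLN LiFKO replicate 3. Sdcbp, the syntenin that links tetraspanins to exosome budding, differed by 0.07 on chow (adjusted p = 0.715) and by -0.05 in DKO against LiFKO (adjusted p = 0.832), and rose by 0.48 in Control livers on AMLN diet (SE 0.11, adjusted p = 0.00726).

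The TFE3 lists held 26445 peaks for LiFKO and 11385 for Control on chow. On FPC diet they held 27751 for LiFKO and 9647 for Control, and 35325 for LiFKO+1c and 10827 for Control+1c. By the file headers, in the FPC LiFKO, Control and Control+1c lists 1 of 3 pooled ChIP libraries is named an input and the library used as input is named a TFE3 ChIP; the LiFKO+1c list and both chow lists have no such mismatch. The peaks come from pooled libraries, so that no replicate check was possible, and scores are the authors' and are read only within a list.

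Inside Cd63 itself a TFE3 peak was present in all 3 LiFKO lists and in no Control list. It spans 128346674 to 128346925 on chromosome 10 over the 3 lists, with its centre 0.792 to 0.867 kb above the lower end of the gene, which is its start on the plus strand. Its score was 23.6 in chow LiFKO, above 65.9% of the peaks of that list (rank 8959), 58.6 in FPC LiFKO, above 98.8% (rank 341), and 46.5 in FPC LiFKO+1c, above 95.8% (rank 1463). A TFE3 peak in all 3 LiFKO lists and no Control list within 1000 bases of the gene was found for 1243 of 13815 genes, or 9.00%; this distance was chosen after the peaks were seen.

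Around Cd63, 9 TFE3 sites lay within 50 kb, of which 6 were in LiFKO lists only and 1 in a Control list only. Peaks were joined into 1 site where they overlapped by at least 1 base, so close peaks without overlap count apart. The share of such sites over all genes was not computed, and each LiFKO list holds more peaks than its Control list. The highest score near the gene on chow belonged to a site at 128360337 to 128360549, inside the span of Bloc1s1 whose promoter is printed above, at 48.2 in chow LiFKO (above 95.0% of its list) and 22.0 in chow Control (above 76.0%). A neighbouring site at 128360086 to 128360274 scored 25.3 in FPC LiFKO and 25.1 in FPC LiFKO+1c, and one at 128360575 to 128360741 scored 7.82 in FPC Control+1c. Within 50 kb, 87.0% of all genes had a chow LiFKO peak and 68.6% a chow Control peak, so a peak at that distance is common.

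Near Cd63-ps, 1 site was in all 3 LiFKO lists and no Control list, from 50293485 to 50293720, which ends 0.66 kb below the lower end of the pseudogene and lies within Hsd17b4. Its score was 15.2 in chow LiFKO (above 37.6% of the list), 12.9 in FPC LiFKO (above 55.0%) and 11.0 in FPC LiFKO+1c (above 36.8%), so that it stood near the middle of each list. A second site at 50287794 to 50288151, at the lower end of Hsd17b4, scored 24.1 in chow LiFKO and 14.5 in chow Control, and 20.5 in FPC LiFKO+1c. Over 50 kb there were 4 sites by the same joining rule, 2 of them in LiFKO lists only.

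**Figure D5:**
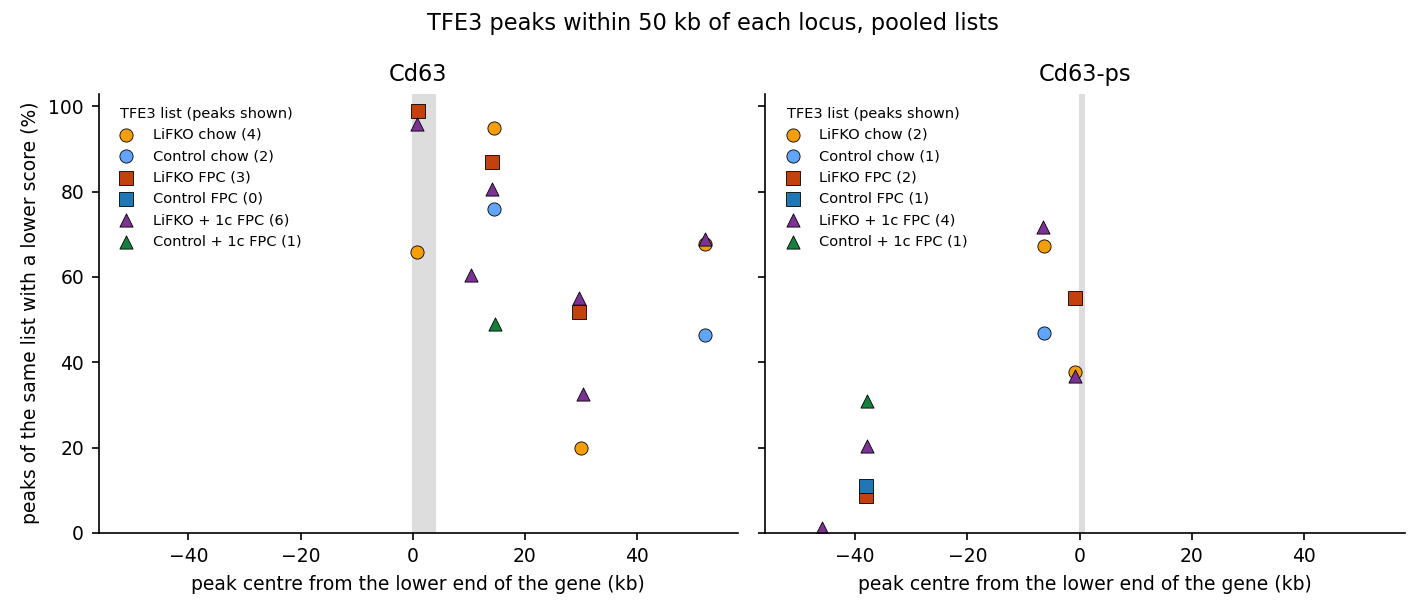
TFE3 peaks within 50 kb of Cd63 (left) and Cd63-ps (right) in the 6 pooled lists; the horizontal axis is the distance of the peak centre from the lower end of the gene in kb, the vertical axis the percent of peaks of the same list with a lower score, and the grey band is the gene. The 3 peaks inside Cd63 are all from LiFKO lists, at 65.9%, 95.8% and 98.8%, and those beside Cd63-ps lie at 36.8% to 55.0%.

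By the file header, 1 of the 3 libraries pooled for the LiFKO+1c HA list is named a TFE3 ChIP and 2 are named HA, while the Control+1c HA list names 3 HA libraries. No HA-nSREBP-1c peak lay within 100 kb of either gene in the lists of 1367 peaks for LiFKO+1c and 1702 for Control+1c, where 15.8% and 19.3% of all genes had one within 50 kb. The authors' deposited table of 96 differential TFE3 sites compares FPC LiFKO+1c with FPC LiFKO, and not LiFKO with Control. Of its sites, 0 lay within 50 kb of either gene. The sequence under the peaks was not analysed here.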

How the data were processed

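The 2 genes and all lists were chosen with earlier results of these data known. The authors deposited a table of log2 RNA-seq values; per the submitters' processing notes reads were trimmed (Trimmomatic 0.32), aligned to mm9 (STAR 2.6.0c), counted with featureCounts and normalised with limma. The maximum was 21.47 in every library. Reads per library and the handling of multi-mapping reads are not given in the sources used here. Deposited peak lists give a HOMER score from pooled libraries, per the file headers. The authors' deposited differential list gives adjusted p-values and log2 fold changes of its sites, per the file headers, and was used for positions only.

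A limma 3.58.1 (R 4.3.3) linear model with a mean per group was fitted to 13815 genes in 15 libraries, with eBayes (trend=TRUE), two-sided, and Benjamini-Hochberg adjustment within each of 7 comparisons; genes were called at an adjusted p under 0.05. On simulated data with the libraries of the AMLN against chow comparison in Control, 77% of changes of 1 and 96% of changes of 2 (log2) were recovered, with 8 false calls over 13815 genes. Named were Cd63, Cd63-ps, Flcn, Tfe3, the 6 genes nearest in profile, 3 genes on each side of a locus, and of each list up to 5 genes with the smallest p in LiFKO against Control on chow and up to 4 in AMLN against chow in Control; members of counts of 5 or fewer outside this rule, and Clec4f and Csf1r, were named after their values were seen. The symbol Slc38a9 belongs to more than 1 gene and was left out. Same-numbered libraries of chow LiFKO and chow Control had residual correlations of 0.1129 to 0.2369. A replicate block, with the number as a term, was therefore fitted as an alternative. Unless the block is named, values are from the fit without it. That fit called 3545 genes for LiFKO against Control on chow, against 3409 with the block. In the diet comparisons the correlations were -0.126 to -0.0081 in Control and -0.1846 to -0.0369 in LiFKO. Alternatives were eBayes settings, the replicate block, other samples in the fit, a filter, a pseudocount of 16 and leaving out each library. Python 3.11.15, pandas 2.3.3 and matplotlib 3.10.9 were used.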

Additional observations from a re-analysis of the deposited data

Results flagged for a closer look

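Smpd3, the neutral sphingomyelinase among the vesicle genes read beside Cd63, had a Flcn difference that was smaller on AMLN diet than on chow, by -4.03 (log2, SE 0.34, adjusted p = 6.15e-05 for the difference between diets in limma). It averaged 9.03 in the libraries labelled DKO, 9.96 in AMLN LiFKO and 9.26 in AMLN Control, and 10.21 in chow LiFKO and 5.48 in chow Control (n = 3 each), so that the chow Control group stands apart. The difference ran from -4.31 to -3.82 with any 1 of 12 libraries left out, with a largest adjusted p of 0.000485.

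Cd9, another tetraspanin, had the same kind of difference between diets, -1.28 (SE 0.25, adjusted p = 0.0284 in limma). It averaged 10.03 in AMLN LiFKO and 10.13 in AMLN Control, and 9.94 in chow LiFKO and 8.76 in chow Control. The call was lost in 8 of the 12 fits that leave out 1 library, where the difference ran from -1.47 to -1.12 with adjusted p up to 0.0782, and with eBayes without an intensity trend (adjusted p = 0.0536). No p is given for the same contrast in Cd63 and Cd63-ps, since the Flcn differences chose them.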

How the results depend on the processing

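For Cd63 and Cd63-ps every difference kept its sign in 46 of 46 combinations of comparison and setting each that keep all libraries, and the diet differences, for which alone a p is given, kept their side of the threshold in those. With the replicate block the diet difference of Control livers was 1.87 (adjusted p = 0.00219) for Cd63 and 1.95 (adjusted p = 0.00174) for Cd63-ps. The block changed neither diet call of the pair. The only signs that turned were those of the diet difference in LiFKO, with 1 library left out: -0.18 to 0.12 for Cd63 and -0.10 to 0.15 for Cd63-ps, values near 0.

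Counts over all genes moved by more than 1.5 times in these cases, and the cause was not tested. DKO against Control gave 90 genes, 30 with eBayes without a trend and 15 with only the groups compared, and 24 to 231 with 1 library left out (231 without DKO replicate 1). AMLN against chow gave 3154 genes in Control, 1938 to 3257 with 1 library left out and 1218 with the replicate block among only the groups compared, a fit chosen after seeing the data; in LiFKO it gave 517, 175 to 497 with 1 left out, 215 with only the groups compared and 61 with that block. The difference of the Flcn effect between diets gave 144, 72 without a trend and 27 to 334 with 1 left out. DKO against LiFKO gave 1523, and 991 to 1280 with 1 left out. The diet counts of the lysosomal membrane list, 4 higher and 5 lower, became 1 and 1 with the block among only the groups compared. The log2 values hold no counts, so what depth limits could not be read from them.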
